A study of Mus musculus with 2 samples.

Results

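The DNA replication genes described here are 38 genes whose products license, start and carry out the copying of the genome in S phase. They were taken as a list of gene symbols, and all 38 were among the 27998 genes of the files. Before S phase, ORC, Cdc6 and Cdt1 load the ring-shaped Mcm2 to Mcm7 complex onto DNA, and geminin (Gmnn) keeps Cdt1 from loading it again. Cdc45 and the GINS proteins then turn the ring into a moving helicase, primase and DNA polymerases copy the strands behind it, and the sliding clamp PCNA, set by the RFC loader, holds the polymerases in place. Many of these genes are transcribed by E2F factors as cells pass from G1 into S phase, so that their transcripts mark dividing cells. In the late fetal pancreas, duct cells, acinar cells and stroma still divide, while endocrine progenitors leave the cell cycle as they differentiate.

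The study measured transcripts in single cells of C57BL/6 mouse pancreas at embryonic day 18.5. One library was labelled control and one knockout, the latter called Dpy30∆P in the design. Dpy30 is a core subunit of the histone H3K4 methyltransferase complexes. Neither the labels nor the design name the Cre driver or the alleles of the groups. The labels give 1 pancreas per library, so no difference below has a replicate check. Intervals in parentheses are 95% intervals of counting error only, and UMIs (unique molecular identifiers) count captured transcripts.

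After filtering, 2611 cells of the library labelled control and 3233 of the library labelled knockout were kept, with medians of 6831 and 6631 UMIs per cell. Dpy30 (ENSMUSG00000024067) went against the knockout label over all kept cells, with 113 and 144 UMIs per 1000000 (ratio 1.27, 1.21 to 1.34), although a 3' tag outside a deleted part would not show a deletion. The libraries are therefore named by their labels throughout. They also differed in sex, with 1 and 46550 UMIs of Xist, the female-specific X inactivation transcript, and 1570 and 0 UMIs of the Y-linked Ddx3y, so that sex and label cannot be told apart. Of the 38 genes, Pola1 lies on the X chromosome. The libraries shared 27 barcodes, 12 of them among kept cells. Cells were resuspended in 500 µL for the library labelled control and 250 µL for the library labelled knockout, with 17.4 µL loaded from each. That handling difference cannot be told apart from the label either. Cells were assigned to marker-defined classes, written as "-like", from clusters made without cell cycle genes, and 9 classes had at least 50 cells in each library. By class, the Dpy30 ratio was 2.32 in beta-like, 1.94 in alpha-like, 1.59 in acinar-like and 1.20 in ductal-like cells. Its interval included 1 in progenitor-like (0.844), mesenchymal-like (1.12), mesothelial-like (0.969), endothelial-like (0.969) and macrophage-like cells (1.11). The beta-like class also had Sst, and the alpha-like class Ghrl, among its 10 leading genes. The macrophage-like class had the neutrophil marker S100a8, with F13a1 and Il1b, among its 10, and its content of other myeloid cells was not tested.

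Stretches of the promoters that hold E2F letters are shown first, because these genes were detected together in the same cells. Promoters were the 250 bases before and 50 bases after a start site in RefSeq, build GRCm38, and 29 of the 38 genes had an entry, with 34 promoters. The letters searched on both strands were TTTGGCGC, TTTCGCGC, TTTCCCGC and TTTGCCGC, and overlapping matches were merged. The sequences run 5′ to 3′ on the strand of the gene, with the E2F letters in capitals. They belong to Mcm5 (chr8:75109340-75109383, plus strand, from 153 bases before the start), a helicase gene whose capitals hold 2 overlapping matches, to Mcm6 (chr1:128359788-128359831, minus strand, from 110 bases before, again with 2 overlapping matches, and chr1:128359729-128359768, from 47 bases before), to Mcm7 (chr5:138172025-138172064, minus strand, from 165 bases before), to Cdc6 (chr11:98907997-98908036, plus strand, from 138 bases before), to Pola1 (chrX:93632270-93632309, minus strand, from 138 bases before) and to Uhrf1 (chr17:56304112-56304151, plus strand).
Mcm5: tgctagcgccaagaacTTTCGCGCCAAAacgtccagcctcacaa
Mcm6, far window: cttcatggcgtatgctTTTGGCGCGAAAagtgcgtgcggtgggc
Mcm6, near window: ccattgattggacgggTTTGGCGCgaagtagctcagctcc
Mcm7: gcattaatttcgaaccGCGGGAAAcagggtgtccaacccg
Cdc6: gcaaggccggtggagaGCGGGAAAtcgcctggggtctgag
Pola1: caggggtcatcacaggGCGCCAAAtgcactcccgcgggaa
Uhrf1: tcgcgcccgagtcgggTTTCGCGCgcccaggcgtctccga

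E2F letters were found in 11 of the 34 promoters (32.4%, 17.4% to 50.5%), which belonged to 11 genes. Of all 32851 promoters in the reference, 2.26% held them. The share was 29.5% over 44 promoters of 42 other replication genes, of which 36 had an entry, and 3.33% over 30 promoters of mitosis genes. CHR letters (TTTGAA), which are known from promoters of genes expressed in G2 and mitosis, lay in 11.8% of the promoters of the 38 genes, in 76.7% of those of mitosis genes and in 17.9% of all. CCAAT was found in 58.8%, 76.7% and 37.4%, in the same order. A match gives letters in a window and not a bound site.

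Summed over the 38 genes, the level followed the cell class more than the library. Duct, stroma, vessel and macrophage classes stood above all acinar-like and endocrine classes in both libraries. In the library labelled control, the sum was 1933 UMIs per 1000000 UMIs of the class (CPM) in endothelial-like cells (1866 to 2001), 1932 in ductal-like cells (1897 to 1968), 1889 in pericyte and smooth muscle-like cells (1783 to 1999), 1853 in macrophage-like cells (1738 to 1972), 1781 in mesenchymal-like cells (1746 to 1818) and 1779 in mesothelial-like cells (1715 to 1846). Neighbours in that order had overlapping intervals. A gap followed, down to 1110 CPM in progenitor-like cells (1025 to 1200), which are marked by Neurog3 and Pax4, and 1064 in alpha-like cells (993 to 1139). Acinar-like cells had 894 CPM (838 to 953) and beta-like cells 823 (791 to 856), again with overlapping intervals.

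On the knockout-labelled side, ductal-like cells stood highest, at 2335 CPM (2292 to 2379), clear of mesenchymal-like cells at 1888 (1855 to 1921). Endothelial-like cells had 1727 CPM (1648 to 1810), macrophage-like cells 1564 (1469 to 1664) and mesothelial-like cells 1531 (1468 to 1596), and the last 2 overlapped. Progenitor-like cells had 898 CPM (828 to 973), alpha-like cells 789 (715 to 868), acinar-like cells 742 (726 to 759) and beta-like cells 664 (613 to 718). The gap between both sets of classes was thus present in each library. Pericyte and smooth muscle-like cells were too few for a level here, with 48 cells.

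**Figure D1:**
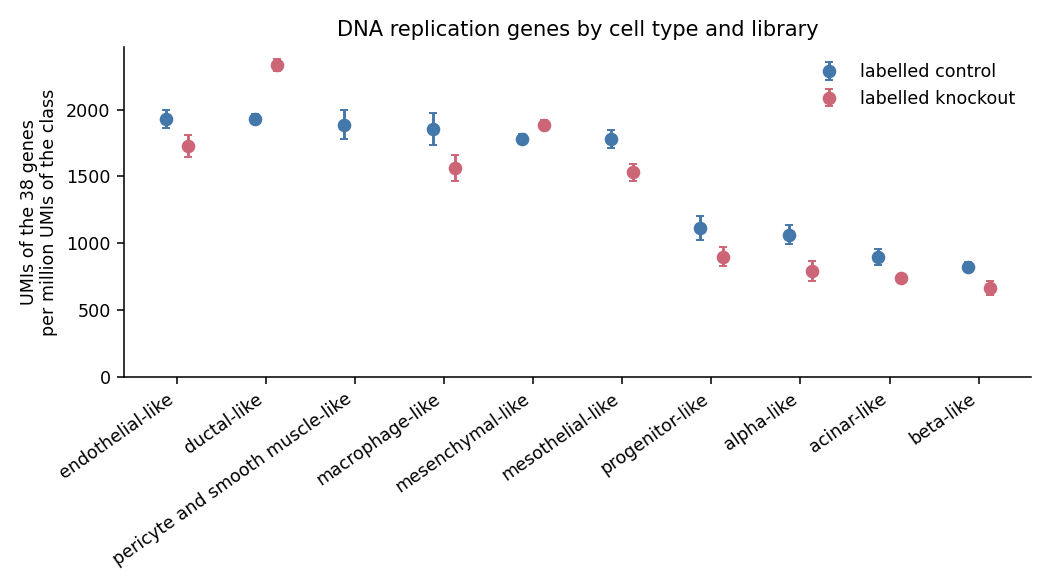
Summed UMIs of the 38 DNA replication genes per 1000000 UMIs of the class (vertical axis, linear from 0) in each cell class (horizontal axis), for the library labelled control (blue) and the library labelled knockout (red), with exact Poisson 95% intervals. Acinar-like and endocrine classes lie between 664 and 1110, and the other classes between 1531 and 2335.

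Gene by gene the split was looser. In the library labelled control, 18 of 38 genes stood lower in each of the acinar-like and endocrine classes than in each of the other compared classes, and in the library labelled knockout 23 of 38 did. Averaged over classes, 36 of 38 genes in the library labelled control and 38 of 38 in the library labelled knockout were lower in the acinar-like, progenitor-like, alpha-like and beta-like classes than in the ductal-like, mesenchymal-like, mesothelial-like, endothelial-like and macrophage-like classes. The exceptions were Dut, the dUTPase that keeps uracil out of DNA, and Orc6, a subunit of the origin recognition complex. Dut stood highest in alpha-like cells of both libraries, at 171 and 150 CPM, against 111 and 149 CPM in ductal-like cells. Orc6 stood highest in beta-like cells of the library labelled control, at 105 CPM, and lower in those of the library labelled knockout, at 66.8 CPM. Among the 9 classes with at least 50 cells in each library, ductal-like cells held the highest level of 11 genes in the library labelled control and of 25 in the library labelled knockout, and macrophage-like cells that of 11 and 3.

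Levels over all kept cells are given per gene, because a 3' tag count is not a molar scale between genes. Dek, a chromatin protein that non-dividing cells also make, had 167 CPM in the library labelled control and 148 in the library labelled knockout. Slbp, which binds histone mRNA, had 120 and 94.3 CPM, and Dut 100.1 and 95.5 CPM. Together with Rpa2, a subunit of the single-strand binding protein, at 37.7 and 32.2 CPM, these genes gave 26.1% and 25.8% of the summed UMIs.

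Of the licensing genes, Orc6 had 59.8 and 46.1 CPM, Gmnn 57.6 and 57.7, Cdt1 22.2 and 18.6 and Cdc6 7.80 and 6.63. The helicase genes ranged from Mcm6 at 64.1 and 56.7 CPM through Mcm7 (42.3 and 40.4), Mcm3 (40.1 and 32.7), Gins2 (39.5 and 40.1), Mcm5 (32.0 and 27.2), Mcm4 (31.3 and 28.3) and Mcm2 (29.4 and 25.02) to Gins1 (7.29 and 7.90) and Cdc45 (6.37 and 5.92). Among the polymerase genes, the primase subunit Prim1 had 22.7 and 22.0 CPM, and the catalytic subunits had 17.6 and 17.3 (Pola1), 15.2 and 13.4 (Pold1) and 6.60 and 5.53 (Pole). These values mix classes, and the acinar-like class, where the genes are low, had 111 cells in the library labelled control and 764 in the library labelled knockout.

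At the fork, the ligase Lig1 had 83.6 and 67.6 CPM, Tipin, a fork protection factor, 86.5 and 65.0, and the clamp gene Pcna 60.9 and 44.4. The clamp loader genes had 69.6 and 66.0 (Rfc2), 35.8 and 31.4 (Rfc3), 25.4 and 29.0 (Rfc4) and 31.2 and 31.7 CPM (Rfc5), the flap nuclease Fen1 20.8 and 20.5, and Dscc1, of an alternative loader, 8.03 and 7.20. Of the nucleotide supply genes, Tyms (65.4 and 63.9) and Rrm2 (38.5 and 37.9) stood closer between the libraries than Tk1 (41.9 and 35.1) and Rrm1 (38.4 and 32.6). Of the chromatin genes, Atad2 had 35.6 and 31.5 CPM, Uhrf1, which guides DNA methylation to new strands, 33.0 and 27.8, and the chromatin assembly subunits Chaf1b and Chaf1a 16.8 and 14.8, and 10.5 and 8.86.

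To compare cells at one depth, each cell was thinned at random to 2000 UMIs, and a cell with at least 5 UMIs of the 38 genes was called replication-positive. Such cells made up 19.7% of the library labelled control (499 of 2536) and 19.5% of the library labelled knockout (609 of 3119), and 75 and 114 cells were too shallow to enter. The call is a range on a count and not a cell type: 276 and 316 cells lay at 4 or 5 UMIs, just outside or inside it. Without thinning, 59.8% and 55.6% of cells had 5 or more. Positive cells were also deeper before thinning, with medians of 8277 against 6518 UMIs in other cells of the library labelled control, and 7733 against 6449.5 in the library labelled knockout.

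The barcodes left out for having under 500 detected genes carried the 38 genes at 46.0 and 39.3 CPM, below the level of each class. These 1290 and 1465 barcodes held 3216048 and 4278981 UMIs. They are therefore no measure of free RNA alone, and what they contained was not tested. Neuron-like cells, a postmitotic type with medians of 11141 and 11272 UMIs, had no positive cell among 16, which allows a share of up to 18.8%.

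By class, positive cells were most frequent in endothelial-like cells of the library labelled control (26.3%, 19.9% to 33.5%) and, under the knockout label, in ductal-like cells (33.4%, 28.7% to 38.4%). Ductal-like cells of the library labelled control had 22.2% (18.7% to 26.1%). Mesenchymal-like cells had 21.8% and 25% (share ratio 1.15, 0.978 to 1.34), mesothelial-like cells 17.5% and 20.0%, and macrophage-like cells 21.4% and 15.4%. Shares were low in acinar-like cells (11.3% and 7.54%) and endocrine classes, namely progenitor-like (9.09% and 5.41%), alpha-like (7.45% and 1.47%) and beta-like cells (7.37% and 3.23%). For alpha-like cells this was 7 of 94 against 1 of 68 cells, and for beta-like cells 16 of 217 against 3 of 93, with ratio intervals that include 1.

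**Figure D2:**
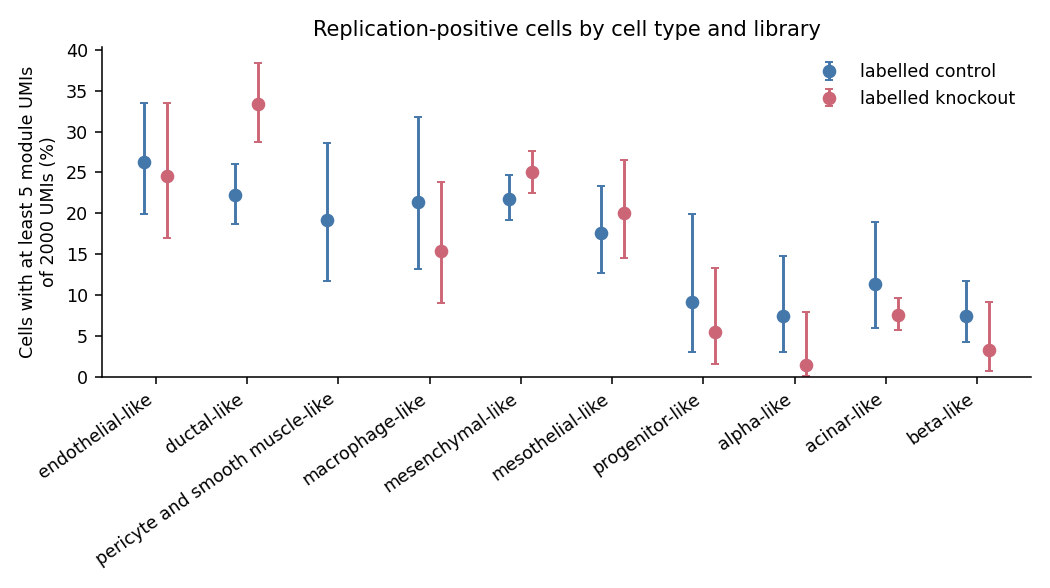
Share of cells with at least 5 UMIs of the 38 genes after thinning to 2000 UMIs (vertical axis, percent from 0) in each cell class (horizontal axis) and library (blue, labelled control; red, labelled knockout), with Clopper-Pearson 95% intervals. Ductal-like cells show 22.2% and 33.4%, and the intervals of the libraries overlap in the other classes.

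Mesenchymal-like cells made up 39.1% of all positive cells in the library labelled control and 47.8% in the library labelled knockout. The shares of ductal-like cells were 22.6% and 20.9%. Acinar-like cells, of which there were 111 and 764, made up 2.40% and 9.20%. Within positive cells, where the count is at least 5 by definition, levels were as follows. Positive ductal-like cells held a mean of 10.0 UMIs of the 38 genes per 2000 in the library labelled control and 9.54 in the library labelled knockout (ratio 0.951, 0.876 to 1.03). For mesenchymal-like cells the means were 8.73 and 8.89 (ratio 1.02, 0.958 to 1.08), and for acinar-like cells 7.42 and 7.18. Positive endothelial-like cells had 9.44 and 8.14 (ratio 0.863, 0.732 to 1.01), and positive macrophage-like cells 10.1 and 8.50 (0.841, 0.668 to 1.06).

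Part of the positive cells also held 5 or more thinned UMIs of 31 mitosis genes, at 38.1% in the library labelled control and 36.8% in the library labelled knockout. Of all thinned cells, 14.8% and 13.9% reached that count of mitosis UMIs. High counts of replication and mitosis transcripts thus met in some of the cells and not in others.

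Each gene was then compared between cells that were positive by the other 37 genes and cells that were not, so that it took no part in its own grouping. All 38 genes stood higher in the positive cells in both libraries, but over a wide span. Cdc6, the licensing ATPase, had 25.1 CPM in positive cells of the library labelled control and 0.736 in its other cells, a ratio of 34.1 (10.4 to 177), and 21.4 and 1.39 CPM in the library labelled knockout (15.4, 6.50 to 41.9). Dscc1 had ratios of 18.2 and 19.5, Rrm2, the ribonucleotide reductase subunit whose level follows S phase, 13.7 and 13.4, and the thymidine kinase Tk1 12.8 and 11.3.

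At the other end, transcripts of several members were plain in cells outside the positive set. Orc6 had 106 CPM in positive cells and 41.6 in other cells of the library labelled control (ratio 2.54, 1.97 to 3.27), and 91.9 and 33.5 CPM in the library labelled knockout (2.74, 2.13 to 3.52). Ratios were 2.58 and 2.93 for Rfc4, 3.13 and 3.81 for Slbp, 3.15 and 2.70 for Rfc2 and 3.62 and 3.94 for Dek. The helicase genes Mcm4, Mcm6 and Mcm2 also lay low, with 3.38 and 4.33, 3.42 and 4.25, and 3.88 and 3.84. Pcna had ratios of 5.09 and 5.40. The other cells include cells with up to 4 UMIs of the genes used for grouping.

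These ratios pool classes that differ in level and in their share of positive cells, as for Orc6, which was high in beta-like cells. Within mesenchymal-like cells alone, Orc6 had ratios of 2.39 (1.54 to 3.65) and 2.07 (1.45 to 2.95), and within ductal-like cells alone 2.93 (1.64 to 5.22) and 2.36 (1.26 to 4.46). In mesenchymal-like cells Rrm2 had 22.1 and 22.4, Tk1 12.2 and 11.1, Rfc4 1.69 and 1.61, and Mcm4 1.63 and 2.62. In ductal-like cells Mcm4 stood higher, at 7.68 and 4.58. Dscc1 had 13 UMIs in positive and 1 in other ductal-like cells of the library labelled control, and 13 and 3 in those of the library labelled knockout.

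**Figure D3:**
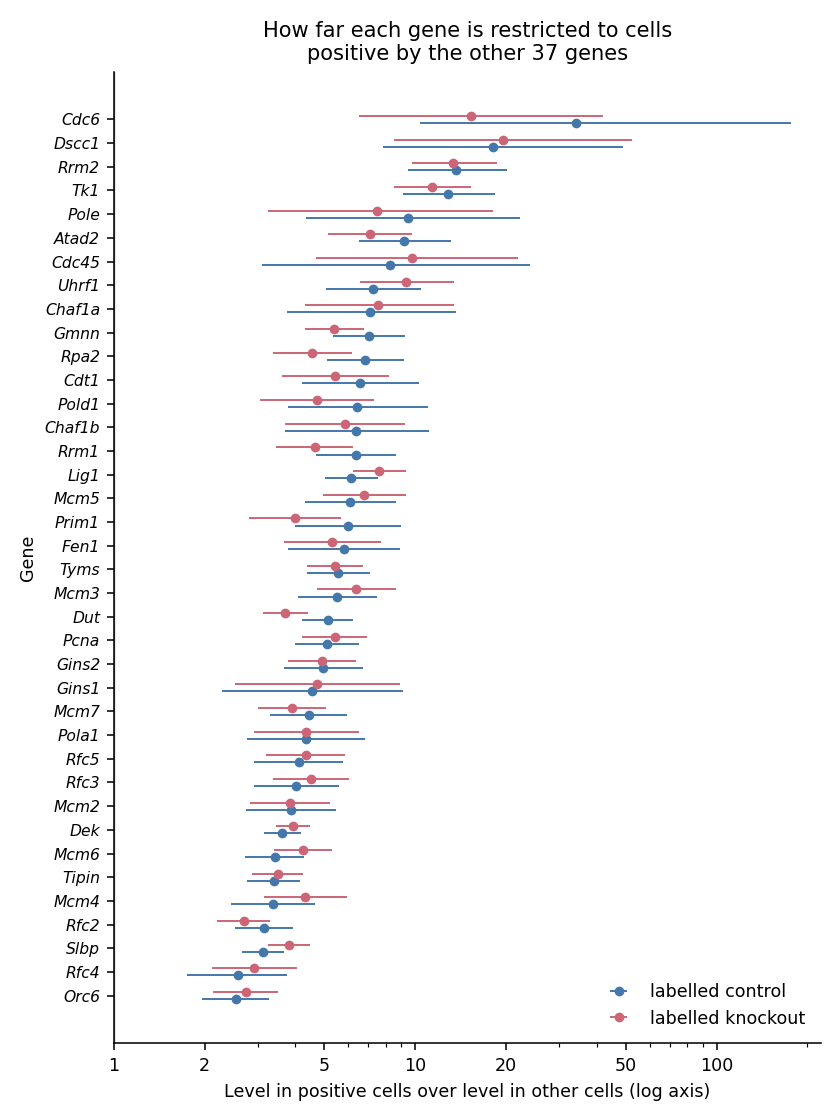
Level of each gene in cells positive by the other 37 genes over its level in the other cells (horizontal log axis), for the library labelled control (blue) and labelled knockout (red), with exact conditional binomial 95% intervals. Genes are in the order of the library labelled control, from Orc6, at 2.54 and 2.74, to Cdc6, at 34.1 and 15.4. In the library labelled knockout the lowest ratio was that of Rfc2 (2.70) and the highest that of Dscc1 (19.5). Every point lies above 1.

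Between libraries, the summed ratio of ductal-like cells was the highest of the 9 classes. The sum was 1932 CPM in the library labelled control and 2335 in the library labelled knockout, a ratio of 1.21 (1.18 to 1.24), and the share of positive cells was 1.51 times as high (1.21 to 1.87). Of 38 genes, 37 had a ratio above 1, where 6277 of all 11437 genes with at least 20 UMIs in the class did. The median log2 ratio was 0.29, beside 0.04 over all those genes. Sizes were small. Only 3 genes were at least 1.5-fold higher and none as much lower, where 5.84% and 5.64% of all genes were, so large ratios were about as common as in that background.

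Those 3 were Chaf1a, with 9.60 CPM in the library labelled control and 15.8 in the library labelled knockout (ratio 1.65, 1.15 to 2.37), Cdc45, with 7.20 and 11.8 CPM (1.64, 1.08 to 2.51), and Rpa2, with 33.4 and 51.5 CPM (1.54, 1.27 to 1.87). Gins1 followed, with 9.26 and 13.7 CPM (1.48, 1.02 to 2.17). Cdc45 and Gins1 encode parts of the active helicase. The genes with most UMIs had smaller ratios, namely Dek with 177 and 214 CPM (1.21, 1.11 to 1.32), Dut with 111 and 149 CPM (1.34, 1.20 to 1.49) and Lig1 with 104 and 121 CPM (1.16, 1.03 to 1.30).

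All role groups stood higher in ductal-like cells. The licensing genes had the highest ratio, at 1.31 (1.20 to 1.42), followed by 1.26 for the helicase genes (1.19 to 1.34) and 1.26 for the nucleotide supply genes (1.18 to 1.34). Polymerase genes had 1.23 (1.08 to 1.40), fork genes 1.15 (1.10 to 1.21) and chromatin genes 1.14 (1.08 to 1.21), and these intervals overlap. Pcna was the exception, with 73.2 and 65.8 CPM (0.899, 0.775 to 1.04). The ratios of Slbp (1.01), Uhrf1 (1.04) and Tyms (1.09) had intervals that include 1. With ratios centred on the median of all genes, Slbp too stood below 1, which left 36 genes above it.

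The ductal-like class was made up of 2 clusters, in which the libraries had different shares of their cells. Cluster 2, led by Ces1d and Spp1, held 420 cells of the library labelled control and 186 of the library labelled knockout. Cluster 7, led by Ankrd1, Krt17 and Wfdc18, held 125 and 200 cells and had 3 ductal markers among its 50 leading genes. Replication genes stood higher in cluster 7 in both libraries, at 2736 CPM (2626 to 2850) and 2661 (2598 to 2724), than in cluster 2, at 1796 (1759 to 1834) and 1947 (1888 to 2006). Within cluster 2 the ratio between libraries was 1.08 (1.05 to 1.12), with 30 of 38 genes above 1. Their median log2 ratio was 0.13, beside -0.0009 over all genes. Within cluster 7 the ratio of the sum was 0.973 (0.928 to 1.02), with 22 of 38 above 1 and a median log2 ratio of 0.04, beside 0.08 over all genes. The difference in the class sum was thus smaller within cluster 2, and none was detected within cluster 7. Cells of cluster 7 in the library labelled control had a median of 6656 UMIs, against 10988 in the library labelled knockout, and 36 of 125 were too shallow for thinning.

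**Figure D4:**
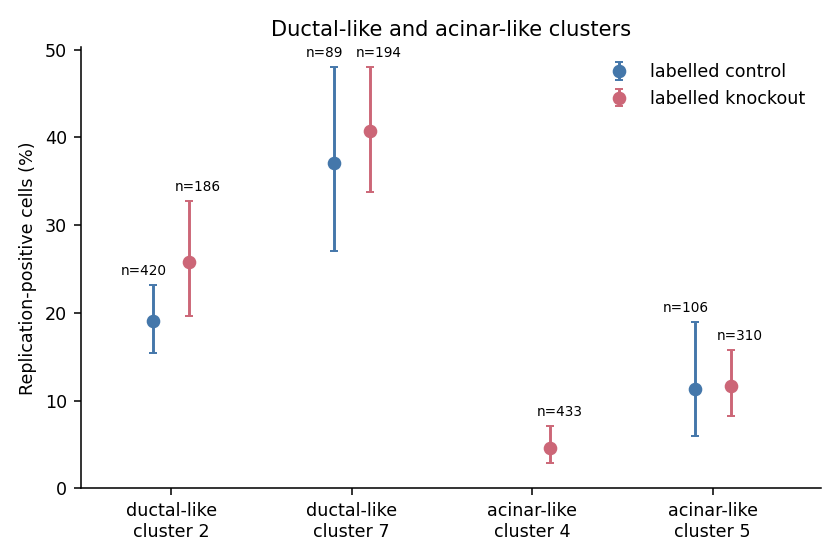
Share of replication-positive cells (vertical axis, percent from 0) in the 2 ductal-like and 2 acinar-like clusters (horizontal axis) by library (blue, labelled control; red, labelled knockout), with Clopper-Pearson 95% intervals and the number of thinned cells. Within ductal-like cluster 2 the shares are 19.1% and 25.8%, within cluster 7 37.1% and 40.7%, and acinar-like cluster 4 has no cell in the library labelled control.

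Most of the other replication genes also had ratios above 1 in ductal-like cells. Of 42 such genes, 35 had a ratio above 1, where 6277 of all 11437 genes did. Of the 42, 4 were at least 1.5-fold higher and none as much lower, where 5.84% and 5.64% of all genes were. Their sum was 1187 and 1353 CPM (ratio 1.14, 1.10 to 1.18). Among them, Mcm10, which helps start the helicase, had 6.68 and 13.3 CPM (1.99, 1.31 to 3.04), and Donson 1.89 and 4.01 CPM (2.13, 0.962 to 4.94). Of 20 regulators of the G1 to S transition, 17 had a ratio above 1, 3 were at least 1.5-fold higher and none as much lower. Ccne1, a cyclin of S phase entry, had 2.57 and 8.02 CPM (3.12, 1.68 to 6.10), and E2f2 1.20 and 3.59 CPM (2.99, 1.18 to 8.53). Mitosis genes stood nearly level, with 2304 and 2369 CPM (1.03, 1.00 to 1.05).

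In acinar-like cells the sum lay lower in the library labelled knockout, at 894 CPM in the first and 742 in the second (ratio 0.831, 0.776 to 0.890), but the direction depended on which cells were compared. All 111 acinar-like cells of the library labelled control were in cluster 5, led by Cela2a and Clps. In the library labelled knockout, 324 were in cluster 5 and 440 in cluster 4, led by Reg1 and Cela1, which held no cell of the library labelled control. Within cluster 5 the sum was 894 and 1045 CPM, a ratio of 1.17 (1.09 to 1.26), with 27 of 35 genes above 1. Their median log2 ratio was 0.23, beside 0.01 over all genes. There, 9 genes were at least 1.5-fold higher, where 12.3% of all genes were, and 1 was as much lower, where 10.4% were. Of the 35 genes, 19 lay below 1 in the class and above 1 in cluster 5, among them Dek (1.19), Tyms (1.13) and Dut (1.08). Cluster 4 had 604 CPM (586 to 623), the lowest of the clusters in both classes, and 4.62% positive cells (2.84% to 7.04%) against 11.3% and 11.6% in cluster 5. The median depth was 6373 UMIs in the library labelled control and 11659.5 in the library labelled knockout.

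Over the whole acinar-like class, 28 of 38 genes had a ratio below 1, where 4083 of all 10680 genes stood at or below it. At least 1.5-fold lower were 7 genes, where 9.94% of all genes were, and 2 were as much higher, where 23.1% were. Cdt1 stood lowest, with 20.8 CPM in the library labelled control and 7.54 in the library labelled knockout (0.362, 0.223 to 0.612). Dut had 95.6 and 67.6 CPM (0.707, 0.573 to 0.880), Tyms 57.8 and 43.8 (0.758, 0.579 to 1.01) and Dek 73.8 and 65.8 (0.891, 0.704 to 1.14). In thinned cells Dek lay the other way, with 6 and 93 UMIs (2.21, 0.978 to 6.18). Dscc1, with 1 and 30 UMIs, and Cdc45, with 2 and 29, gave the ratios above 1.5, and both intervals include 1. Both genes reached the minimum of 20 UMIs only in the library labelled knockout. Acinar marker genes took 149400 CPM of this class in the library labelled control and 94030 in the library labelled knockout. The median of all genes stood at 0.15 on the log2 scale, beside -0.21 for the members. Whether the marker genes account for that median was not tested. Centred on that median, 12 genes were at least 1.5-fold lower, where 14.7% of all genes were, and 1 was higher, where 17.8% were.

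In the endocrine classes most replication genes stood lower in the library labelled knockout, on small counts. Markers of other cell types differed beside them, and their part in the result was not tested. The summed acinar markers, with 15 to 18 of 20 detected in each class and library, had 326 and 1183 CPM in beta-like, 468 and 1111 in alpha-like and 523 and 1363 in progenitor-like cells. Mesenchymal markers, with 15 to 18 of 18 detected, had 4671 and 7705, 4043 and 8431, and 4662 and 4916 CPM, and ductal markers 14180 and 9520 CPM in progenitor-like cells. The difference in acinar markers was not particular to endocrine classes. They had 570 and 1142 CPM in mesenchymal-like, 405 and 952 in mesothelial-like, 330 and 889 in endothelial-like and 499 and 1600 in macrophage-like cells. In ductal-like cells they lay the other way, at 1715 and 1436 CPM.

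Beta-like cells had 823 and 664 CPM (ratio 0.807, 0.738 to 0.881). Of 33 genes with at least 20 UMIs, 26 had a ratio below 1, where 2647 of all 9333 genes stood at or below it. There, 14 genes were at least 1.5-fold lower, where 7.0% of all genes were, and 2 were higher, where 22.6% were. The median log2 ratio was -0.49, while that of all genes was 0.25. With a minimum of 50 UMIs, 8 genes were at least 1.5-fold lower and 1 was higher. The share over all genes is not given for that minimum, so these counts only describe how the calls moved. Cdc6 had 20 UMIs in the library labelled control and 1 in the library labelled knockout (0.159, 0.00384 to 0.996), and reached the minimum of 20 through the former. Fen1 had 19.0 and 8.49 CPM (0.447, 0.184 to 0.942), Mcm5 14.3 and 6.37 CPM (0.445, 0.155 to 1.05) and Orc6 105 and 66.8 CPM (0.635, 0.477 to 0.835). The X-linked Pola1 had 8.66 and 14.8 CPM (1.72, 0.828 to 3.41). Dut, with 85.6 and 82.8 CPM, and Rfc2, with 54.3 and 52.0, stood nearly level. Median depth was 12994 and 7804 UMIs, and after thinning to 2000 UMIs the class ratio was 0.883. Only 6 of the 38 genes then had at least 20 UMIs, of which 1 was at least 1.5-fold lower, where 10.1% of all genes were. The 16 positive cells of the library labelled control held 35.4% of the thinned UMIs of the 38 genes and the 3 of the library labelled knockout 15.4%. In the other beta-like cells, split off by this same count, the mean was 1.04 and 1.16 UMIs per cell (ratio 1.11, 0.866 to 1.41). The 42 other replication genes stood nearly level, at 623 and 642 CPM (1.03, 0.938 to 1.13), and mitosis genes lay the other way, at 673 and 848 CPM (1.26, 1.16 to 1.37).

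Alpha-like cells had 1064 and 789 CPM (0.741, 0.658 to 0.835). Of 17 genes with at least 20 UMIs, 8 were at least 1.5-fold lower, where 10.3% of all genes were, and none was higher, where 17.7% were. Of the role groups, the helicase genes stood furthest apart, with 124 and 33 UMIs and a ratio of 0.393 (0.259 to 0.581). Only 2 of the 9 helicase genes had at least 20 UMIs, and the group is named here for its extreme value. Gmnn had 25.7 and 9.48 CPM (0.369, 0.108 to 1.01), Mcm6 38.5 and 19.0 (0.492, 0.214 to 1.03) and Rpa2 27.0 and 13.3 (0.492, 0.177 to 1.20). Each of these genes reached 20 UMIs only in the library labelled control. With a minimum of 50 UMIs 1 gene was lower, a count given without the share over all genes. Dek, with 89.9 and 89.1 CPM, did not differ beyond counting error. In the thinned cells the class ratio was 0.893, and of only 4 genes with at least 20 UMIs, 1 was at least 1.5-fold lower, where 11.9% of all genes were. In the library labelled control, much of the thinned sum lay in few cells. The 7 positive cells of the library labelled control held 81 of 161 thinned UMIs, and the 1 positive cell of the library labelled knockout 5 of 104. In the other alpha-like cells the means were 0.919 and 1.48 UMIs per cell (ratio 1.61, 1.19 to 2.19). Cells were split by this same count, so that ratio is a description of the split and no separate result. The 42 other replication genes had 764 and 815 CPM (1.07, 0.940 to 1.21) and mitosis genes 302 and 362 CPM (1.20, 0.986 to 1.46).

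Progenitor-like cells had 1110 and 898 CPM (0.810, 0.723 to 0.907), which turned to 1.11 once every cell was thinned to 2000 UMIs. Of 21 genes, 5 were at least 1.5-fold lower, where 11.6% of all genes were, and 2 were higher, where 10.3% were. The lower genes included Pcna, with 27 and 12 UMIs (0.379, 0.175 to 0.774), Rrm1, with 20 and 10 (0.426, 0.178 to 0.954), and Lig1, with 34 and 18 (0.451, 0.240 to 0.822). Each of these reached 20 UMIs only in the library labelled control. Mcm4, with 7 and 14 UMIs, and Mcm2, with 9 and 16, were higher with intervals that include 1. Mitosis genes had 743 and 350 CPM (0.472, 0.400 to 0.555) in the same cells.

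As a whole class, mesenchymal-like cells had the ratio nearest 1. The sum was 1781 and 1888 CPM (1.06, 1.03 to 1.09), and 26 of 38 genes had a ratio above 1, where 5744 of all 11449 genes did. None of the 38 passed 1.5-fold, where 4.39% of all genes were that much higher and 6.57% lower. The highest ratios were those of Gins1 (6.00 and 8.40 CPM, 1.40, 0.893 to 2.23), Pola1 (17.2 and 23.3 CPM, 1.35, 1.04 to 1.77), Rfc4 (22.7 and 29.9 CPM, 1.32, 1.05 to 1.67) and Prim1 (23.6 and 30.9 CPM, 1.31, 1.05 to 1.65). Dek had 206 and 213 CPM and Slbp 160 and 167. The clusters within the class differed. Cluster 0, led by Mfap4, Serpine2 and Slit2, had 1667 and 1888 CPM (1.13, 1.09 to 1.18), with 30 of 38 genes above 1. Their median log2 ratio was 0.24, beside -0.009 over all genes. Cluster 1, led by Crabp1 and Smoc2, had a ratio of 1.03 (0.981 to 1.09), and cluster 3, led by Krtdap and Mfap5, one of 1.02 (0.972 to 1.07). Mitosis genes stood further apart, at 1494 and 1879 CPM (1.26, 1.22 to 1.29), with 31 of 31 above 1.

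Mesothelial-like cells lay the other way, at 1779 and 1531 CPM (0.861, 0.814 to 0.910), with 28 of 34 genes below 1, where 4712 of all 9335 genes stood at or below it. At least 1.5-fold lower were 5 genes, where 9.97% of all genes were, and 1 was as much higher, where 7.16% were. Mcm3 had 35.4 and 16.01 CPM (0.452, 0.266 to 0.746), Mcm6 65.8 and 36.2 (0.550, 0.387 to 0.773) and Pcna 60.3 and 29.2 (0.485, 0.330 to 0.704). The helicase genes as a group had a ratio of 0.751 (0.649 to 0.869), although Mcm4 had 24.9 and 33.4 CPM (1.34, 0.866 to 2.10). The share of positive cells was 17.5% and 20.0%, with a share ratio whose interval includes 1 (1.14, 0.756 to 1.72). In thinned cells the ratio of the sum was 0.988. Mitosis genes were at 1713 and 2140 CPM (1.25, 1.19 to 1.32).

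Endothelial-like cells had 1933 and 1727 CPM (0.894, 0.843 to 0.948). Of 37 genes, 4 were at least 1.5-fold lower, where 9.73% of all genes were, and none was higher, where 7.59% were. Lig1 had 117 and 74.8 CPM (0.638, 0.483 to 0.837), Pcna 66.8 and 41.3 (0.619, 0.423 to 0.891) and Slbp 164 and 121 (0.739, 0.592 to 0.917). Dek (242 and 243 CPM) and Dut (100.1 and 105 CPM) were nearly level. Mitosis genes had 1917 and 2053 CPM (1.07, 1.01 to 1.13).

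In macrophage-like cells, replication genes stood lower and mitosis genes higher in the library labelled knockout, as in beta-like, mesothelial-like and endothelial-like cells. Replication genes had 1853 and 1564 CPM (0.844, 0.772 to 0.923). Of 32 genes, 6 were at least 1.5-fold lower, where 12.8% of all genes were, and 4 were higher, where 10.1% were. Rpa2 had 54.8 and 17.1 CPM (0.313, 0.141 to 0.645) and Mcm6 98.2 and 40.5 (0.412, 0.247 to 0.672). Prim1, with 8 and 18 UMIs, had the highest ratio, at 1.85 (0.767 to 4.93). Mitosis genes had 808 and 1900 CPM (2.35, 2.10 to 2.63), and 20 of 22 with at least 20 UMIs were at least 1.5-fold higher, where 10.1% of all genes were. Of 14 cells with 5 or more thinned mitosis UMIs in the library labelled knockout, 12 were not replication-positive, against 2 of 6 in the library labelled control.

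**Figure D5:**
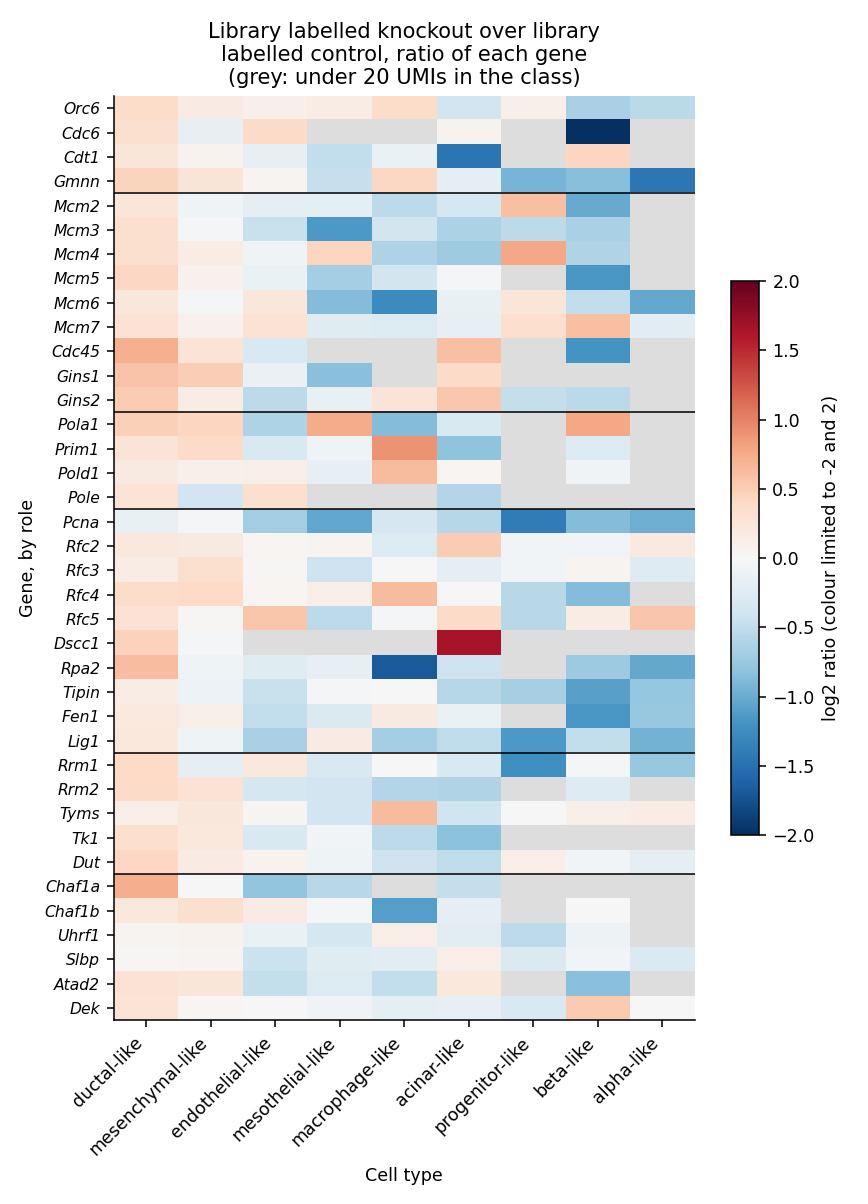
Ratio of the library labelled knockout over the library labelled control for each of the 38 genes (rows, grouped by role from licensing at the top through helicase, polymerase, fork and nucleotide supply to chromatin genes) in 9 cell classes (columns), as log2 in colour (red higher, blue lower, limited at -2 and 2). Genes with under 20 UMIs in a class are grey. The ductal-like column is red but for Pcna, and the beta-like column is mostly blue.

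Across classes, Pcna was the one gene with a ratio below 1 in all 9, and it was singled out after its values were seen. Its interval lay below 1 in 5 of them, and ratios ran from 0.379 in progenitor-like cells to 0.978 in mesenchymal-like cells. It stayed below 1 in all 9 classes when totals left out enzyme, hormone, haemoglobin and mitochondrial genes, and when ratios were centred on the median of all genes. Lig1, Tipin, Mcm3 and Rpa2 were below 1 in 7 classes, of 9, 9, 8 and 8 with enough UMIs. Tyms, the thymidylate synthase, was above 1 in 7 of 9, with an interval above 1 in 1 of them.

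In the authors' deposited table, which lists genes of 14 clusters in order of p-value, 19 of the 38 genes appear. Their cluster 3 lists 18 of them among 267 genes and has 12 among its first 20, opening with Mcm6, Pcna, Atad2, Dek, Mcm3 and Gmnn. In the authors' deposited table, cluster 8 lists 10 of the genes and cluster 12, which opens with Cenpf, a mitotic gene, lists 4.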

How the data were processed

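The authors deposited an unnormalized UMI count for each gene in each barcode, from 10x Chromium 3' v2 kits, with Cell Ranger 3.0.0 named per the file headers. The submitters' processing notes list Seurat, in versions 2 and 3, with GRCm38 and mm10 as builds. The p-value in the authors' deposited table is the authors' own, its test is not stated in any source used here, and it served only for the order of genes within a cluster. The members and lists were chosen with earlier results of these data known.

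The libraries (labelled control, then labelled knockout) held 3986 and 4779 barcodes with 25398522 and 33048640 UMIs. Kept barcodes had at least 500 detected genes, which 1290 and 1465 missed, and at most 10% mitochondrial UMIs, which 63 and 57 exceeded. Scrublet called 22 and 24 doublets, which were removed. The 2000 most variable genes were used without enzyme, hormone, haemoglobin, mitochondrial, ribosomal, sex-linked and 457 cell cycle genes. A first clustering still held a cycling cluster, so 703 further genes that correlated above 0.1 with the summed cell cycle genes within clusters were also left out, a step chosen after seeing the data. Cells (scaled to 10000, clipped at 10, 30 components, 15 neighbours, Leiden resolution 1) formed 21 clusters. Names needed at least 3 markers of a class among the 50 leading genes of a cluster, and were withheld where its 10 leading genes went against them or its median depth was below 1/3 of that of the library. Unnamed clusters, 3 in all, held 78 and 148 cells.

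UMIs were summed per class and library in 9 classes with at least 50 cells in each, and divided by class totals. Intervals are exact Poisson for levels, exact conditional binomial for ratios, Clopper-Pearson for shares and Katz for share ratios. No test across samples was possible. Cells thinned to 2000 UMIs with at least 5 module UMIs were called positive. A gene with at least 20 UMIs over both libraries of a class was called past 1.5-fold, so a gene can pass through the library where it is high. No UMIs counted as a floor of 3. Named in each class were the 4 highest and 4 lowest ratios and the 3 genes with most UMIs, and of other lists the 2 highest and 2 lowest. Other lists were 42 further replication genes, 20 G1 to S regulators and 32 mitosis genes, of which 31 are in the files. Filters, doublets, clustering, scaling, depth, cut and members were varied, and alternatives within single ductal-like clusters, and ratios of positive to other cells within single classes, were added after seeing the data. Counts were also simulated with Poisson error alone, which the interval assumes, so that run could not test spread between cells or animals. In it the interval held the true ratio of 96.0% of unaltered genes in ductal-like cells (11438 genes) and 96.5% in acinar-like cells (10661 genes). Calls found 93.0% and 86.0% of genes made 2-fold higher, and 92.6% and 83.5% of those made 2-fold lower. Software was matplotlib 3.10.9, scikit-learn 1.9.0, igraph 0.11.9, leidenalg 0.10.2, scanpy 1.11.5, pandas 2.3.3, SciPy 1.17.1 and NumPy 2.4.6, under Python 3.11.15.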

Additional observations from a re-analysis of the deposited data

Results flagged for a closer look

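The summed replication genes lay in opposite directions in pairs of cell classes, with both intervals away from a ratio of 1, and the difference between classes was not tested. Ductal-like cells, at 1.21, stood against acinar-like (0.831), progenitor-like (0.810), alpha-like (0.741), beta-like (0.807), mesothelial-like (0.861), endothelial-like (0.894) and macrophage-like cells (0.844). Mesenchymal-like cells, at 1.06, stood against the same 7 classes. The acinar-like and ductal-like values changed with the clusters compared, as given above.

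Barcodes with under 500 detected genes were outside the comparisons and still held UMIs of the 38 genes, 148 in the library labelled control (46.0 CPM) and 168 in the library labelled knockout (39.3 CPM).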

How the results depend on the processing

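With 1 library per group, no spread between animals can be given, and UMI counts in the endocrine classes limit what single genes can show there. No paired analysis was possible because each group is 1 library. Of the values that answer a comparison, 315 stayed within the counting interval, or within 1.5 times for a count of genes, 81 moved and 3 reversed. Where a value changed, the cause was not tested, unless the setting itself uses fewer cells or genes.

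For the summed genes, the acinar-like ratio reversed to 1.17 in the cluster that holds cells of both libraries, where 19 of 35 genes turned from below to above 1, Dut among them (1.08), and 9 genes were at least 1.5-fold higher and 1 lower. It was 0.769 with totals without enzyme, hormone, haemoglobin and mitochondrial genes, 0.747 when centred on the median of all genes and 0.928 as a mean over cells. The ductal-like ratio was 1.08 in cluster 2 alone, where Cdc45 (0.938) and Lig1 (0.948) reversed, 1 gene was at least 1.5-fold higher and 1 lower. In cluster 7 alone it reversed to 0.973, with Dek at 0.987 and Lig1 at 0.940, 1 gene at least 1.5-fold lower and a share ratio of 1.10. Both cluster settings were chosen after seeing the data. It was 1.11 with cell cycle genes kept for clustering, 1.25 with at least 1000 detected genes and 1.28 as a mean over cells.

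The progenitor-like ratio reversed to 1.11 in cells thinned to 2000 UMIs, and was 0.934 with at least 1000 detected genes, 0.945 with at most 5% mitochondrial UMIs and 0.986 as a mean over cells. Thinning also gave 0.893 in alpha-like, 0.883 in beta-like and 0.988 in mesothelial-like cells, and the mean over cells gave 0.947 in the last. Beta-like cells had 0.698 without enzyme and hormone totals and 0.677 when centred. The ratio of shares was 1.12 in ductal-like cells without thinning, 0.531 in endothelial-like cells with a cut of 8 UMIs, and 0 in alpha-like cells with that cut, with 3000 UMIs and a cut of 8, or without Dek, Slbp, Dut and Rpa2.

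Counts of genes past the fold moved as follows, on small numbers. The share over all genes is printed here for thinned cells only, so the other counts describe how the calls moved and nothing more. With 2-fold in place of 1.5-fold, higher genes numbered 1 in acinar-like cells and 0 in ductal-like, progenitor-like, beta-like, mesothelial-like and macrophage-like cells, and lower genes 1 in acinar-like, 3 in progenitor-like, 3 in alpha-like, 6 in beta-like, 2 in mesothelial-like, 0 in endothelial-like and 3 in macrophage-like cells. In thinned cells, few genes of some classes had at least 20 UMIs, and the share of all genes called follows in parentheses. Higher were 5 of 34 in ductal-like (9.91%), 3 of 38 in mesenchymal-like (6.82%) and 1 of 21 in endothelial-like cells (10.2%). None was higher of 1 in progenitor-like (12.9%), 6 in beta-like (21.5%) and 9 in macrophage-like cells (12.6%). Lower were 0 of 1 in progenitor-like (11.7%), 1 of 4 in alpha-like (11.9%) and 1 of 6 in beta-like cells (10.1%). In mesenchymal-like cells 1 of 38 was lower (8.35%), and in mesothelial-like cells 2 of 23 were (12.6%). With a minimum of 50 UMIs, higher genes numbered 1 in beta-like and 0 in acinar-like, progenitor-like, mesothelial-like and macrophage-like cells, and lower genes 2 in progenitor-like, 1 in alpha-like, 8 in beta-like and 2 in macrophage-like cells. Without enzyme and hormone totals, and likewise when centred, acinar-like cells had 1 higher and 12 lower, and beta-like cells 0 higher. With doublets kept, higher genes numbered 1 in alpha-like, 1 in endothelial-like, 2 in macrophage-like and 0 in progenitor-like cells, and lower genes 2 in endothelial-like cells. With at least 1000 detected genes, 6 were higher in ductal-like and 4 in progenitor-like cells, and 3 were lower in progenitor-like cells. With at most 5% mitochondrial UMIs, 1 was higher in acinar-like and 4 in progenitor-like cells, and 5 were lower in alpha-like cells. With cell cycle genes kept for clustering, 2 were higher in mesenchymal-like and 1 in progenitor-like cells, and 1 was lower in ductal-like cells. At resolution 0.5, 1 was higher in acinar-like cells.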

Other observations

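Cells outside the compared classes also differed in the level of the 38 genes. An unnamed cluster led by the mast cell genes Cma1 and Cpa3 together with lymphoid genes had 4301 CPM (3914 to 4715) over 24 cells of the library labelled control and 3089 CPM (2806 to 3393) over 25 cells of the library labelled knockout, and 64.7% and 45.5% of its thinned cells were replication-positive. Neuron-like cells had 453 and 690 CPM over 7 and 9 cells. Between endothelial-like clusters, cluster 9, led by Aplnr, had 2146 and 1862 CPM, and cluster 16, led by Gja4 and Cldn5, genes of arterial and tight endothelium, had 1082 and 1064 CPM.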
